A study of Homo sapiens with 4 samples.

Results

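The data describe chromosome 20 in T98G, an established human glioblastoma line, as seen by chromatin immunoprecipitation followed by sequencing (ChIP-seq). The chromosome was taken whole: all 763 regions that the deposited table places on it, of 29302 regions on all chromosomes and against 27846 on the other 21 autosomes. Cells overexpressing LGP2 and cells carrying the empty vector were compared, with 1 ChIP library each and a matching input library each, and the inputs were not analysed here. All cells are T98G and differ only in the introduced construct as far as the labels say, and an antibody against crotonylated lysine is named for the vector library, while for the LGP2 library the sources used here name none. LGP2 is a cytoplasmic RNA helicase of the RIG-I family that shapes the innate response to viral RNA. With 1 library per condition no difference between conditions has a replicate check, so no test was made. Every interval in square brackets is a 95% interval that covers counting error only.

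Chromosome 20 was selected on measured values, the balance between regions called only with LGP2 and regions called only with the vector, so that balance is a description and nothing more. Each chromosome 20 region was called in 1 of the libraries and none was shared. Sharing was rare throughout: 79 of all 29302 regions were called in both libraries, and chromosomes 14, 18 and 21 also had none. On chromosome 20, 587 regions were called in the LGP2 library alone (LGP2-only) and 176 in the vector library alone (vector-only). The deposited densities came out as whole reads plus 1 added read, in windows whose width was inferred as 2 kb, and reads per window are used below. Reads were few: the median chromosome 20 region held 7 reads over both libraries together, and the best covered held 14. Of the regions, 64 lay within 2 kb of another and so shared reads with it.

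Reads outside enriched sites in a ChIP library come from unselected genomic DNA. They follow how many copies of a stretch the cells carry, along with how well it can be fragmented, sequenced and mapped. Glioblastoma lines often carry gained or lost chromosomes. A gain present in both cell populations would raise the reads of both libraries alike, and so would enrichment or mappability common to both. A change that came with LGP2 would alter the ratio between the libraries. Every window used below lies at a called region, so these cannot be told apart here. Chromosome 20 has a short arm (20p) that carries the cystatin cluster and the prion gene among others, and a gene-dense long arm (20q) that holds several genes amplified in epithelial tumours. The copy number of chromosome 20 in these cells was not tested.

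Few called regions overlapped the window directly around an annotated gene start. The 921 RefSeq start windows of 741 chromosome 20 genes, each running from 250 bases before to 50 after a start, were overlapped by 11 regions, all LGP2-only. That is 1.87% [0.939 to 3.33] of the LGP2-only regions, and 0 of 176 vector-only regions, 0% [0 to 2.07], where 3 counts would be a share of 1.70%. Elsewhere on the autosomes the shares were 0.841% [0.702 to 1.00] of LGP2-only and 0.629% [0.498 to 0.784] of vector-only regions. The 250 bases before the start are printed for the 5 named coding genes among them, since their start windows were overlapped, with capitals for the bases inside the called region. Sequences are those of RefSeq on GRCh38.p14, read in the direction of the gene.
LZTS3 (chr20:3168305-3168554, minus strand): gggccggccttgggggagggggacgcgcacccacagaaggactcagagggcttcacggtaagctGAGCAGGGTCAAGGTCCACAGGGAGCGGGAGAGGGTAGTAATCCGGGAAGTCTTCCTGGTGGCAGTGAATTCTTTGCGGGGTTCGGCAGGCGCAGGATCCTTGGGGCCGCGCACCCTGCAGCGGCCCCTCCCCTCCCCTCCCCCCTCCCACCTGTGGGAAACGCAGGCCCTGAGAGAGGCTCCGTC
SLC32A1 (chr20:38724236-38724485, plus strand): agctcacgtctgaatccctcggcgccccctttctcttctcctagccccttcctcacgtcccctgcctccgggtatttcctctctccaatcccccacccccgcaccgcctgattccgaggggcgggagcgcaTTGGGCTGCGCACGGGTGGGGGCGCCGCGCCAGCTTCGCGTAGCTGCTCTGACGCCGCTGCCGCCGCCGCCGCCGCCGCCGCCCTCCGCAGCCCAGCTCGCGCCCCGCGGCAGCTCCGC
PTPRT (chr20:43189907-43190156, minus strand): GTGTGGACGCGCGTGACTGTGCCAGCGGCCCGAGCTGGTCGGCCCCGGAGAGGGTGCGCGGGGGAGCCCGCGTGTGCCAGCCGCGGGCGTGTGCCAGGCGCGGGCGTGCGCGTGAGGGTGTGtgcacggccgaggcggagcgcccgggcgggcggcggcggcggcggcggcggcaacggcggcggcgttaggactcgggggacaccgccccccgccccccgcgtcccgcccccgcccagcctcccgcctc
BIRC7 (chr20:63235655-63235904, plus strand): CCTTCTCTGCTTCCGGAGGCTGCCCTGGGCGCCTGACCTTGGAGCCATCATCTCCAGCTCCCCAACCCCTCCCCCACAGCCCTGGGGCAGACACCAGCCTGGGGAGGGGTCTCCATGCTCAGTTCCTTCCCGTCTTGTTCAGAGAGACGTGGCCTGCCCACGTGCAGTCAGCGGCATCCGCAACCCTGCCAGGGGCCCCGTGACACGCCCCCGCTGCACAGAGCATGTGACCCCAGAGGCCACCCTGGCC
TNFRSF6B (chr20:63696402-63696651, plus strand): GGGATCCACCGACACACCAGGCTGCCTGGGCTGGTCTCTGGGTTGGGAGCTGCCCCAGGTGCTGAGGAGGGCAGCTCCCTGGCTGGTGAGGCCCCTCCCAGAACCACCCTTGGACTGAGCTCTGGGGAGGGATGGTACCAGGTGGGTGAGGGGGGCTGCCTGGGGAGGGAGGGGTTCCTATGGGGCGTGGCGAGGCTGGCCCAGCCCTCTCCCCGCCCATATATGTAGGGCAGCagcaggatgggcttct

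LZTS3, which encodes a postsynaptic density protein of the leucine zipper tumour suppressor family, had 7 LGP2 reads and 3 vector reads in the window of its region. SLC32A1 loads GABA into synaptic vesicles, and its region had 6 LGP2 reads against 3 vector reads. PTPRT, a receptor tyrosine phosphatase of the nervous system, shared its region with the divergent transcript PTPRT-DT, at 5 LGP2 reads against 2 vector reads. The region over the start of BIRC7, an inhibitor of apoptosis also called livin, had 6 LGP2 reads against 2 vector reads and covered the whole window. TNFRSF6B encodes the soluble decoy receptor for Fas ligand, and its region had 5 LGP2 reads against 4 vector reads. All 5 had more LGP2 than vector reads, which is the direction their being called with LGP2 alone selects. Their windows were rich in G and C, at 67% to 81.7%, against a median of 59% over all chromosome 20 windows. A GC box, GGGCGG on either strand, was found in 4 of the 12 windows that a region overlapped (33.3%), against 41.8% of all chromosome 20 windows and 45% of the 33725 autosomal ones.

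The read levels set chromosome 20 apart in both libraries. At regions that only the other library had called, LGP2 reads averaged 1.81 per window [1.62 to 2.02] on chromosome 20 and 1.15 [1.13 to 1.17] on the other autosomes. Vector reads averaged 2.55 per window [2.42 to 2.68] on chromosome 20 and 1.57 [1.55 to 1.59] on the other autosomes. These are the highest means of the 22 autosomes in each library. The next for LGP2 reads was chromosome 22 at 1.56 [1.38 to 1.76], whose interval overlaps that of chromosome 20. For vector reads the next was chromosome 7 at 1.83 [1.74 to 1.92], whose interval does not.

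**Figure D1:**
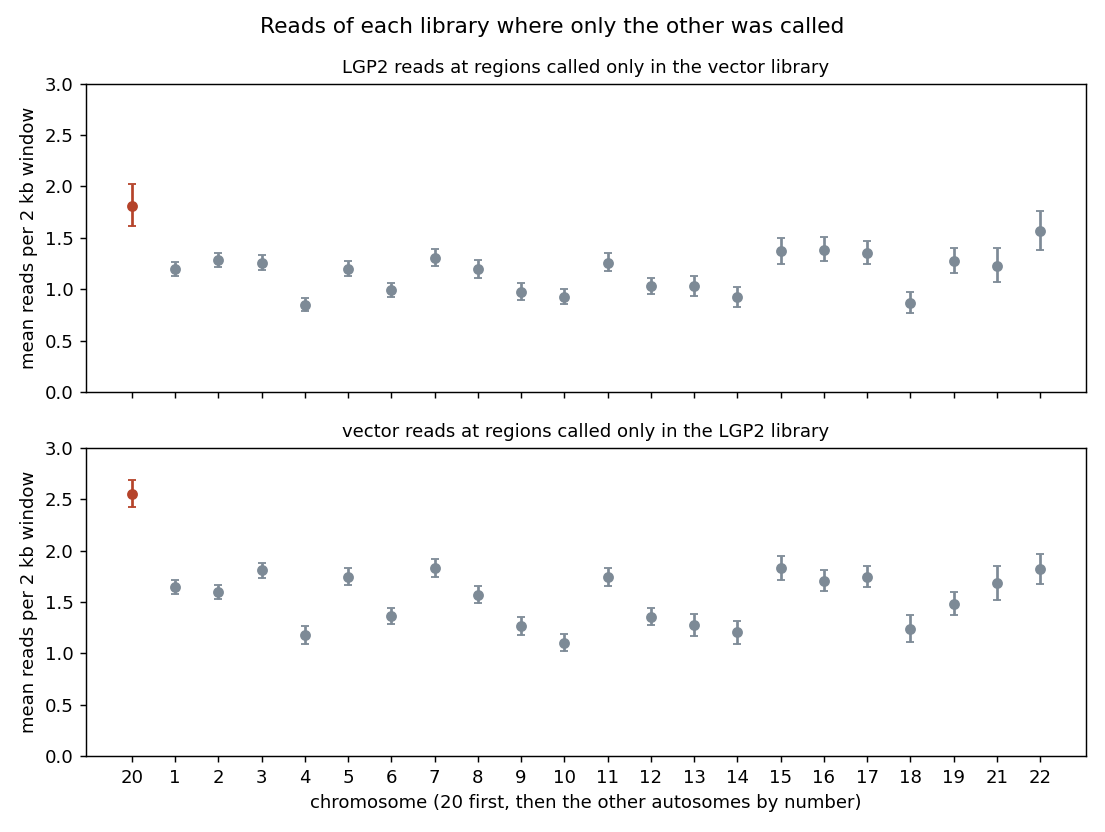
Mean reads per 2 kb window for each autosome, with exact Poisson 95% intervals, for LGP2 reads at vector-only regions (top) and vector reads at LGP2-only regions (bottom). Chromosome 20, drawn first, stands at 1.81 LGP2 reads and 2.55 vector reads, above every other autosome in both panels.

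Expressed as ratios of chromosome 20 over the other autosomes, LGP2 reads were 1.58-fold higher [1.41 to 1.76] and vector reads 1.62-fold higher [1.54 to 1.71]. The first ratio divided by the second is 0.971 [0.859 to 1.10]. So over the whole chromosome the reads of both libraries at regions of the other library were raised by factors that did not differ beyond counting error. The calls were unbalanced there. The arms went opposite ways, so the 0.971 of the whole chromosome averages over unlike arms and does not describe either. On 20p the LGP2 factor was the larger, 1.77 [1.47 to 2.10] against 1.40 [1.27 to 1.53]. On 20q the vector factor was the larger, 1.74 [1.63 to 1.85] against 1.47 [1.26 to 1.69]. Windows with no read of the library that had not called them were scarce as well. LGP2 reads were at 0 in 28 of 176 vector-only windows on chromosome 20, 15.9% [10.8 to 22.2], and in 33.2% [32.3 to 34.0] on the other autosomes. Vector reads were at 0 in 46 of 587 LGP2-only windows on chromosome 20, 7.84% [5.79 to 10.3], and in 21.8% [21.1 to 22.5] elsewhere. The calls shape these reads as well, since windows that a library had called itself are left out of its mean. Keeping windows with at most 3 reads of the library that had not called them gave smaller ratios. These were 1.48 [1.29 to 1.68] for LGP2 reads and 1.36 [1.26 to 1.46] for vector reads.

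The library that made the call also had more reads on chromosome 20, although here the call itself sets a lower bound. LGP2-only regions held 4.44 LGP2 reads [4.27 to 4.62] on chromosome 20 and 3.61 [3.58 to 3.64] on the other autosomes. Vector-only regions held 5.47 vector reads [5.13 to 5.82] on chromosome 20 and 3.88 [3.85 to 3.92] on the other autosomes. Regions resting on at most 3 reads of the calling library were correspondingly fewer. They were 180 of 587 LGP2-only regions on chromosome 20 (30.7%) and 52.2% elsewhere, and 22 of 176 vector-only regions (12.5%) and 43.4% elsewhere.

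Windows were next compared at equal reads of the calling library. At LGP2-only regions with 3 LGP2 reads, vector reads averaged 2.61 on chromosome 20 (142 regions) and 1.51 on the other autosomes, a ratio of 1.72 [1.55 to 1.91]. With 5 LGP2 reads they averaged 2.60 on chromosome 20 (132 regions) and 1.71 elsewhere, a ratio of 1.52 [1.35 to 1.69]. The chromosome 20 mean stayed between 2.50 and 2.61 for 2 to 6 LGP2 reads, while that of the other autosomes climbed with them. At 7 and 8 LGP2 reads, in 41 and 16 regions, the ratios were 1.19 [0.949 to 1.49] and 1.12 [0.745 to 1.65], and a difference was not detectable at this depth. At vector-only regions the ratios of LGP2 reads ran from 1.39 to 1.69 for 3 to 7 vector reads, with intervals above 1, and stood at 1.06 [0.677 to 1.61] for 8 vector reads in 16 regions.

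**Figure D2:**
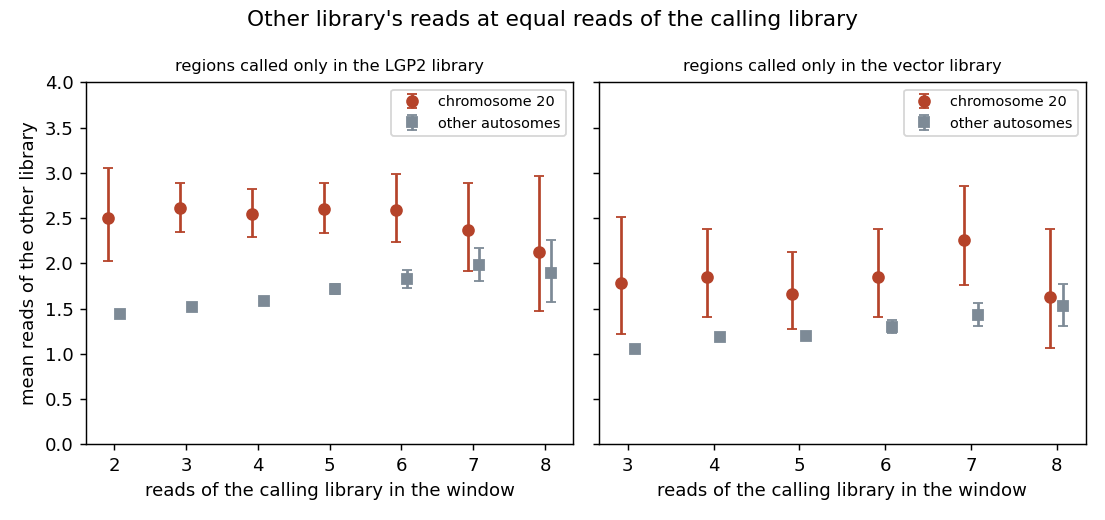
Mean reads of the other library, with exact Poisson 95% intervals, against reads of the calling library, for LGP2-only (left) and vector-only regions (right), chromosome 20 as circles and other autosomes as squares. The circles lie above the squares at every read number, from 2.50 against 1.44 vector reads where 2 LGP2 reads made the call, and the intervals meet at the right-hand end of both panels.

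The calls themselves were spread very unevenly between the libraries. LGP2-only regions made up 76.9% [73.8 to 79.9] of the 763 on chromosome 20, where 54.9% of all 29302 regions were LGP2-only and 44.9% vector-only. Per Mb between the first and last gene, chromosome 20 held 9.14 LGP2-only regions and the other autosomes 5.42, a ratio of 1.69 [1.55 to 1.83]. For vector-only regions the values were 2.74 per Mb on chromosome 20 and 4.47 elsewhere, a ratio of 0.613 [0.525 to 0.711]. In LGP2-only regions per Mb chromosome 20 was thus the highest autosome, ahead of chromosome 19 at 8.09. In vector-only regions per Mb it was the lowest, below chromosome 15 at 3.24.

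**Figure D3:**
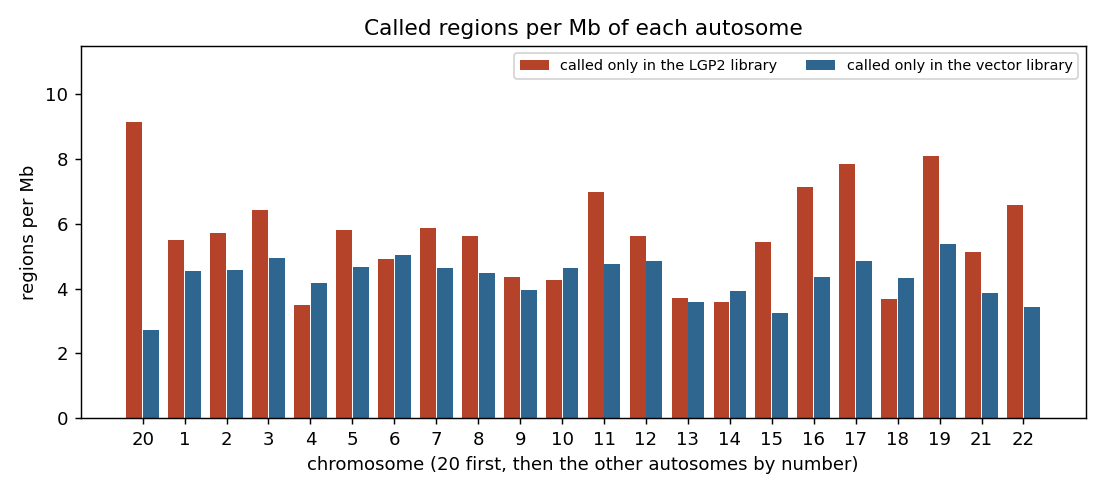
Regions per Mb of each autosome called only in the LGP2 library (left bar of each pair) and only in the vector library (right bar). Chromosome 20, drawn first, has the tallest LGP2-only bar, 9.14 per Mb, and the shortest vector-only bar, 2.74 per Mb.

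The low number of vector-only regions depended on weakly covered calls. Counting only regions with at least 5 reads in the calling library left 264 LGP2-only and 122 vector-only regions on chromosome 20, a ratio of 2.16 [1.74 to 2.70], against 0.896 [0.853 to 0.940] on the other autosomes. With that minimum, vector-only regions were more frequent per Mb on chromosome 20 than elsewhere, at 1.52-fold [1.26 to 1.82], and LGP2-only regions at 3.67-fold [3.23 to 4.17]. The excess of LGP2-only over vector-only calls therefore remained at this minimum, while the deficit of vector-only calls turned round. These are part of the calls on whose balance the chromosome was chosen, so the remaining excess is a description too.

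Over all called regions the density ratio of LGP2 over vector was higher on chromosome 20 than elsewhere. This depends on the mix of calls, on which the chromosome was chosen, and is a description. Within LGP2-only regions LGP2 reads were 1.23-fold and vector reads 1.62-fold those of the other autosomes. Within vector-only regions these factors were 1.58 and 1.41. The median LGP2 over vector ratio on the log2 scale, with 1 read added, was 0.56 on chromosome 20 and 0.15 on the other autosomes. The 2 medians differ by 0.41 in the deposited values and by 0.42 after scaling by the reads at regions of the other library, which shifts the median of all regions by 0.33. With 5 reads added instead of 1 they differ by 0.19, and with at least 5 reads in the calling library by 1.17 [1.08 to 1.40]. At least 2-fold higher densities with LGP2 were found at 253 chromosome 20 regions (33.2% [29.8 to 36.6]), where the share over all regions was 29.5%. At least 2-fold lower densities were found at 105 (13.8% [11.4 to 16.4]), where the share over all regions was 25.2%. Of the 358 regions past either limit 70.7% were thus higher, which became 65.6% after centring on the median of all regions, 83.7% after the scaling above and 51.6% with 5 reads added instead of 1. These settings shift all regions too. After centring, 23.4% of all regions were higher and 30.2% lower, against 29.0% and 15.2% on chromosome 20. After the scaling the shares were 38.4% and 19.6%, against 45.7% and 8.91%. With 5 reads added they were 2.40% and 4.33%, against 4.19% and 3.93%.

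The arms were divided at the longest stretch of chromosome 20 without a region of either library, 2.73 Mb from 25880497 to 28610355 (GRCh38), where the next longest such stretch was 0.698 Mb. The longest stretch without a RefSeq gene, from 26251588 to 28580633, lies inside it. To its right, on 20q, lay 384 LGP2-only and 112 vector-only regions, and to its left, on 20p, 203 LGP2-only and 64 vector-only regions. LGP2-only regions were 77.4% [73.5 to 81.0] of the regions on 20q and 76.0% [70.4 to 81.0] on 20p, a difference of 1.39 percentage points [-4.97 to 8.04]. Regions were denser on 20q, with 10.8 LGP2-only and 3.14 vector-only regions per Mb, than on 20p, with 7.87 and 2.48.

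Both arms had more reads than the other autosomes in each library. LGP2 reads at vector-only regions averaged 1.69 per window [1.46 to 1.95] on 20q and 2.03 [1.70 to 2.41] on 20p, a ratio of 0.831 [0.661 to 1.05]. Vector reads at LGP2-only regions averaged 2.74 [2.57 to 2.91] on 20q and 2.20 [2.0 to 2.41] on 20p, a ratio of 1.25 [1.11 to 1.39]. The vector reads were thus higher on 20q beyond counting error, while a difference between the arms in LGP2 reads was not detectable at this depth. Over the other autosomes the ratios were 1.47 [1.26 to 1.69] on 20q and 1.77 [1.47 to 2.10] on 20p for LGP2 reads. For vector reads they were 1.74 [1.63 to 1.85] on 20q and 1.40 [1.27 to 1.53] on 20p.

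Along the chromosome the higher reads were not tied to 1 segment. In 5 Mb bins counted from the start of 20p, LGP2-only regions numbered 55, 29, 24, 40, 49, 13, 43, 47, 47, 51, 33, 59 and 97 per bin. Vector-only regions numbered 13, 11, 9, 12, 15, 5, 22, 12, 19, 11, 14, 18 and 15. LGP2-only regions were the more numerous in all 13 bins, with shares from 66.2% to 86.6%. The chromosome was chosen on this balance. Over 539 bins of the other autosomes the median share was 53.4%, so LGP2-only regions were often the more numerous there too. On chromosome 20 the ratio of LGP2-only to vector-only regions was highest in the last bin, at the end of 20q, with 97 against 15. It was lowest in the bin from 30 to 35 Mb, with 43 against 22. Leaving out any 1 bin kept the ratio of LGP2-only to vector-only regions between 3.04, without the last bin, and 3.53.

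LGP2 reads at vector-only regions ranged from 1.23 to 2.60 per window over the 11 bins with at least 10 such regions. All 11 lay above the median of the 526 bins of the other autosomes, 1.12, and 8 lay above their 95th percentile, 1.72. Vector reads at LGP2-only regions ranged from 1.46 to 3.12 over the 13 bins. Above the median of 525 bins elsewhere, 1.50, lay 12 of the 13, and 10 lay above the 95th percentile there, 2.13. The exception was the bin from 25 to 30 Mb, which holds the gap between the arms. It had only 13 LGP2-only regions with 1.46 vector reads per window [0.880 to 2.28], and 5 vector-only regions with 0.60 LGP2 reads [0.124 to 1.75].

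The highest vector reads were found on 20q, from 2.76 to 3.12 per window in each of the 5 bins from 35 to 60 Mb. The highest LGP2 reads were found on 20p, at 2.50 [1.69 to 3.57] in the bin from 15 to 20 Mb and 2.60 [1.85 to 3.55] in the bin from 20 to 25 Mb. With 12 and 15 vector-only regions these bins are thinly filled. Among the other autosomes, 3 of the 525 bins reached the chromosome 20 mean of 2.55 vector reads, 1 on chromosome 2 (3.90) and 2 neighbouring bins on chromosome 7 (3.57 and 2.94), and 16 of 526 reached its mean LGP2 reads. Leaving out any 1 bin kept the chromosome 20 means between 1.74 and 1.90 LGP2 reads and between 2.49 and 2.59 vector reads.

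**Figure D4:**
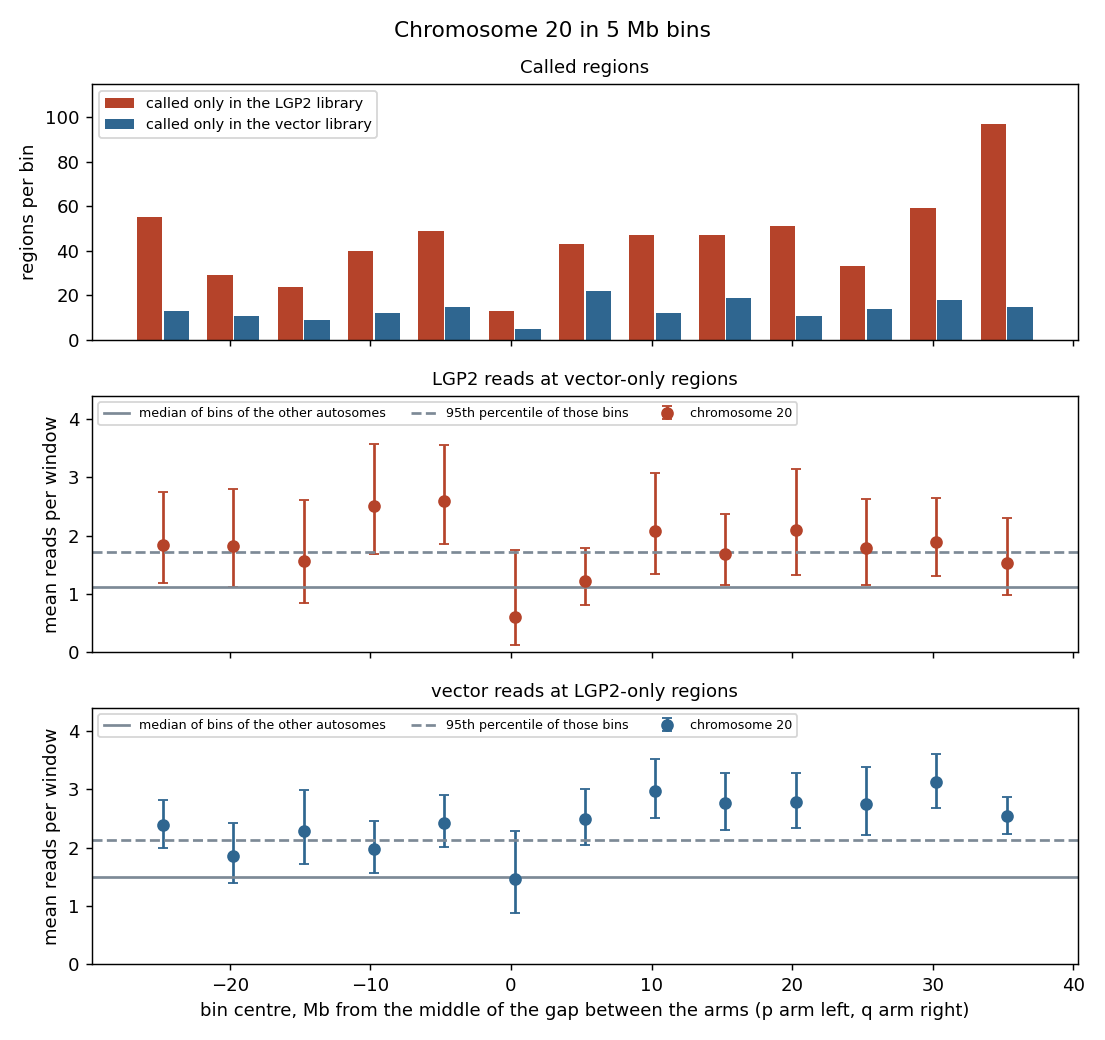
Chromosome 20 in 5 Mb bins placed by distance from the middle of the gap between the arms: regions per bin (top, LGP2-only as the left bar), LGP2 reads per window at vector-only regions (middle) and vector reads at LGP2-only regions (bottom), with exact Poisson 95% intervals. Solid and dashed lines mark the median and 95th percentile of bins of the other autosomes, and 8 of 11 LGP2 points from bins with at least 10 regions and 10 of 13 vector points lie above the dashed line.

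The share of LGP2-only regions was higher on chromosome 20 at every gene density. With 23.0 RefSeq genes per Mb chromosome 20 was the sixth of the autosomes. Regions were split into 5 strata by the genes within 500 kb. In the poorest stratum, with at most 9 genes, LGP2-only regions were 69.9% [58.8 to 79.5] of 83 on chromosome 20 and 49.7% on the other autosomes. In the richest, with at least 32 genes, they were 80.3% [74.6 to 85.1] of 238 on chromosome 20 and 62.2% on the other autosomes. Between them the shares on chromosome 20 were 66.1%, 83.6% and 77.9% in rising order of gene density, so they did not follow it step by step, and those elsewhere were 52.9%, 54.0% and 55.7%. In each of the 5 strata the share was higher on chromosome 20, by 20.5 percentage points on average. The chromosome was chosen on this balance of calls, so its shares by stratum are a description. Vector reads at LGP2-only regions were also higher on chromosome 20 in all 5, from 2.19 to 2.74 per window against 1.39 to 1.69 elsewhere. LGP2 reads at vector-only regions ran from 1.60 to 2.20 on chromosome 20 and from 1.09 to 1.24 elsewhere. GC content of the regions was not computed, and its part in these values was not tested.

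Position relative to genes differed in part from that on the other autosomes. Within 3 kb of a transcript start, annotated as promoter, lay 144 of 587 LGP2-only regions (24.5% [21.1 to 28.2]) and 35 of 176 vector-only regions (19.9% [14.3 to 26.6]). The difference of 4.65 percentage points has an interval of -2.86 to 11.4, and with at least 5 reads in the calling library it was 10.3 points [0.590 to 19.1]. On the other autosomes these shares were 21.5% [20.8 to 22.1] of LGP2-only and 18.6% [17.9 to 19.3] of vector-only regions. Introns held 198 LGP2-only (33.7% [29.9 to 37.7]) and 65 vector-only regions (36.9% [29.8 to 44.5]) on chromosome 20, and 41.3% and 43.9% on the other autosomes. The intron share of LGP2-only regions was therefore lower on chromosome 20, its interval lying below the value elsewhere. Intergenic sequence held 205 LGP2-only (34.9%) and 64 vector-only regions (36.4%), and 3′ UTRs 16 LGP2-only and 3 vector-only regions. A lncRNA was the nearest gene of 34.9% [31.1 to 38.9] of LGP2-only and 35.8% [28.7 to 43.4] of vector-only regions on chromosome 20, and of 28.7% and 29.6% elsewhere. Median widths were 309 bp for LGP2-only and 310 bp for vector-only regions.

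The 763 regions were assigned to 463 nearest genes, of which 308 had 1 region. Of the 155 genes with at least 2 regions, 67 had regions of both libraries, 79 LGP2-only regions alone and 9 vector-only regions alone. As 76.9% of the chromosome 20 regions were LGP2-only, the balance it was chosen on, these counts describe that mix. Genes of the other autosomes were not counted in this way, so nothing particular to these genes is read from the counts. PTPRT had the most. Its RefSeq gene spans 1.16 Mb of 20q (chr20:42031890-43189906) and held 19 regions inside it, 13 LGP2-only and 6 vector-only, all in introns, some of them assigned to non-coding transcripts within the gene. Summed over the 19 windows there were 63 LGP2 reads and 69 vector reads. Vector reads averaged 2.46 at its LGP2-only regions, near the chromosome 20 mean of 2.55, and 3 of its 6 vector-only regions had no LGP2 read. So the gene with the most calls had regions of both kinds interspersed within single introns.

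The regions with the most reads in both libraries together were in part balanced between the libraries or inverted relative to their calls. A region 21973 bp upstream of BPIFA2, which encodes a salivary protein, had 10 LGP2 reads and 4 vector reads. An LGP2-only region by the pseudogene RPF2P1 had 4 LGP2 reads and 10 vector reads, so that its call goes against its reads. RNA5SP484, a pseudogene of 5S ribosomal RNA, had an LGP2-only region with 5 LGP2 and 8 vector reads. RNU6-929P (LGP2-only) and AL160413.1 (vector-only) each had 6 LGP2 and 7 vector reads, and 2 regions by AL049812.2, 1 of each kind, had 3 LGP2 and 9 vector reads. Regions with equal reads were thus called in opposite libraries in both of these pairs.

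Such inverted calls were more frequent among LGP2-only regions of chromosome 20 than elsewhere. The density ratio pointed to the vector library at 86 of 587 (14.7%) on chromosome 20, and at 6.57% on the other autosomes. Among vector-only regions it pointed to the LGP2 library at 11 of 176 (6.25%) on chromosome 20, and at 8.24% elsewhere.

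The largest log2 density ratios came from windows empty in 1 library. Of these, 2 had 8 LGP2 reads and 0 vector reads: an intergenic region by the lncRNA AL137078.2 and one in an intron of PHACTR3, a brain-enriched regulator of protein phosphatase 1 and actin. Regions by AL034550.1, AL160412.1 and RPS15AP1 had 7 LGP2 reads and 0 vector reads. Those by AL022342.1, AL160410.1 and C20orf197 had 6 LGP2 reads and 0 vector reads. In the other direction a PTPRT intron had 0 LGP2 reads and 9 vector reads. Regions by COL20A1 (a collagen chain), DEFB115 (a beta-defensin), ITCH-AS1 and RN7SKP184 had 0 LGP2 and 8 vector reads. Those by AL009050.1, AL109955.1 and ENTPD6, a nucleotide-hydrolysing enzyme, had 0 LGP2 and 7 vector reads. A count of 8 has a 95% Poisson interval of 3.45 to 15.8 and a count of 0 one of up to 3.69, and these regions were picked as the most extreme of 763.

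Listed cancer genes of 20q were covered much as the rest of the chromosome. Of 44 listed genes, 24 had a region, and 38 of their 48 regions were LGP2-only and 10 vector-only. At least 2-fold higher densities with LGP2 were found at 13 (27.1%) and at least 2-fold lower at 6 (12.5%). The shares over all regions were 29.5% and 25.2%. Over chromosome 20 regions they were 33.2% and 13.8%, the closer reference for this list and those below. The median log2 ratio was 0.61, against 0.56 over all chromosome 20 regions. Of the 48 regions, 15 were assigned to PTPRT, and the lists of neural and of long genes below count these again. PTPN1, a phosphatase that restrains insulin and JAK signalling, had vector-only intron regions with 4 LGP2 and 7 vector reads and with 4 LGP2 and 6 vector reads. NFATC2, a calcium-regulated transcription factor, had an LGP2-only region with 7 LGP2 and 4 vector reads. PREX1, a Rac exchange factor, had one with 5 LGP2 and 6 vector reads and another with 6 LGP2 and 4 vector reads. MYBL2, a cell cycle transcription factor, had an LGP2-only region with 6 LGP2 and 3 vector reads.

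Innate immune and crotonyl-CoA genes were put on 1 list, since LGP2 acts in RNA sensing and crotonyl-CoA is the donor for lysine crotonylation. Of 23 listed genes 14 had at least 1 region, with 14 regions LGP2-only and 5 vector-only in all, and a median log2 ratio of 0.48, 4 of 19 at least 2-fold higher with LGP2 (21.1%, against 29.5% over all regions) and 1 at least 2-fold lower (5.26%, against 25.2%). The region by ZBP1, a sensor of Z-form nucleic acids, with the most reads was vector-only with 5 LGP2 and 7 vector reads. That by SAMHD1, a dNTP hydrolase that restricts viruses, was vector-only with 4 LGP2 and 7 vector reads. SIRPA, the receptor for CD47, had an LGP2-only promoter region with 6 LGP2 and 4 vector reads, and SIRPB1 one with 7 LGP2 and 2 vector reads. ACSS2, which makes crotonyl-CoA from crotonate, had an LGP2-only region with 6 LGP2 and 3 vector reads, annotated in the table at a transcript start but outside the RefSeq start windows of this gene. Its mitochondrial relative ACSS1 had a vector-only intron region with 0 LGP2 and 4 vector reads, and both were singled out after their values were seen.

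At 21 of 37 neural and glial genes lay 52 LGP2-only and 14 vector-only regions, with a median log2 ratio of 0.65. At least 2-fold higher were 17 of 66 (25.8%, against 29.5% over all regions and 33.2% on chromosome 20). At least 2-fold lower were 5 (7.58%, against 25.2% and 13.8%). In the long genes, a list that overlaps this one, 25 of 34 held 61 LGP2-only and 17 vector-only regions, with a median of 0.58. DLGAP4, a scaffold of the postsynaptic density, had a vector-only region with 3 LGP2 and 8 vector reads. MYT1, a zinc finger factor of the oligodendrocyte lineage, had an LGP2-only region with 6 LGP2 and 5 vector reads. SYNDIG1, an AMPA receptor partner, had a vector-only region with 4 LGP2 and 6 vector reads and an LGP2-only one with 7 LGP2 and 2 vector reads.

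The list named cell cycle and replication genes, which also holds genes of other functions such as RPN2 and NCOA6, had few regions. So had the epithelial gene clusters. At 15 of 42 cell cycle and replication genes lay 12 LGP2-only and 8 vector-only regions, with a median log2 ratio of 0.02. At least 2-fold higher was 1 of 20 (5%, against 29.5% over all regions and 33.2% on chromosome 20). At least 2-fold lower were 8 (40%, against 25.2% and 13.8%). Among the members with the most reads, RPN2, a subunit of the oligosaccharyltransferase complex, had an LGP2-only region with 6 LGP2 and 5 vector reads. NCOA6, a nuclear receptor coactivator, had an LGP2-only region with 4 LGP2 and 5 vector reads, and FAM83D, a spindle protein, one with 5 LGP2 and 4 vector reads. The beta-defensin, cystatin and WAP clusters, whose genes are expressed mainly in epithelia and the male reproductive tract, had 7 LGP2-only and 5 vector-only regions at 10 of 43 genes and a median of -0.01. WFDC6 had a vector-only and WFDC9 an LGP2-only region, each with 3 LGP2 and 7 vector reads. With so few regions per list, no count is read as different from the proportion among the 587 LGP2-only and 176 vector-only regions of the whole chromosome.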

How the data were processed

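ChIP-seq libraries of T98G cells with LGP2 overexpression or empty vector were deposited as 1 table of called regions, 1 ChIP library each. Its density values, a signal that the authors normalized between the libraries, were used. The sources used here name no aligner, peak caller or normalization for it. The labels name the mouse build mm10, but the positions are human: of 330 chromosome 20 genes matched by symbol, 323 (97.9%) overlap the RefSeq GRCh38.p14 gene, so coordinates are read as GRCh38. Columns with the authors' log2 ratio, mean level and p-value for each region were left out, and the ratio was computed from the densities. Reads were recovered by removing the straight line between log2 ratio and mean log2 level that leaves whole numbers. All densities came out within 0.001 of whole reads, with 1 read added and a window inferred as 2 kb from their scale. Library totals are unknown.

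Shares have exact Clopper-Pearson intervals, means exact Poisson intervals and ratios of rates exact conditional intervals, all at 95%. The interval of a ratio of 2 ratios uses the normal approximation on the log scale, and differences of shares combine the exact bounds. The scripts were tested on simulated data. Chromosome length was taken from the first to the last RefSeq gene. The text names the 8 regions with the highest and the 8 with the lowest log2 ratio, the 8 with the most reads, and up to 6 genes with the most reads in each of 6 gene lists, except 1 gene that is not reported here. The members, lists and tests were chosen with earlier results of these data known. Calculations used Python with numpy, pandas and scipy.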

Additional observations from a re-analysis of the deposited data

How the results depend on the processing

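Of 49 recomputed values, 36 stayed within the counting interval of the reported value, or within 1.5 times of a count. Requiring at least 5 reads in the calling library moved the LGP2-only to vector-only ratio to 2.16, LGP2-only regions per Mb over the other autosomes to 3.67, vector reads at LGP2-only regions over the other autosomes to 1.42, the difference of median log2 ratios to 1.17 and the share at least 2-fold higher with LGP2 to 42.0%. It reversed vector-only regions per Mb over the other autosomes to 1.52. The share at least 2-fold higher was 29.0% after centring on the median of all regions, 45.7% after scaling on each library's reads where only the other was called and 4.19% with 5 reads added. Over all regions the shares under these settings were 23.4%, 38.4% and 2.40%, so they moved there as well. LGP2-only regions were the more numerous in 31 of 32 bins of 2 Mb and 7 of 7 bins of 10 Mb, and bins of these widths on other autosomes were not counted. Chosen after seeing the data, leaving out the last 5 Mb bin moved LGP2-only regions per Mb to 1.51 over the other autosomes, and keeping windows with at most 3 reads in the other library moved the vector read ratio to 1.36. No paired analysis was possible because each condition had 1 ChIP library. The planned strata of GC content were not run. Intervals cover counting error only, few reads stand behind each region, and without the input libraries copy number, mappability and enrichment cannot be told apart.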
